A study of Mus musculus with 9 samples.

Results

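A set of 7 genes that bind, sense or move zinc was described in cultured mouse neural stem cells (NSCs): the metallothioneins Mt1, Mt2 and Mt3, the metal-responsive transcription factor Mtf1, the zinc exporter Slc30a1 (ZnT1) and the zinc importers Slc39a1 (ZIP1) and Slc39a12 (ZIP12). They were taken by symbol, and all 7 were found among the 55704 genes of the deposited table. Metallothioneins are small cysteine-rich proteins that hold zinc and copper in the cytosol. Free zinc in the cytosol binds MTF1, which then moves to the nucleus and acts at short DNA motifs called metal response elements, at metallothionein genes and at Slc30a1. ZnT proteins carry zinc out of the cytosol and ZIP proteins carry it in. In brain, Mt1, Mt2 and Mt3 are known as genes of astrocytes, with Mt3 also in neurons.

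NSCs came from the subventricular zone of C57BL/6 mice aged 8 to 9 weeks, with 2 female and 2 male mice for each isolation. The passaged cells put into the BMP4-containing media were plated on poly-L-ornithine and laminin. The surface on which the bFGF/EGF cells of day 0 grew is not stated in the sources used here. The 3 libraries labelled bFGF/EGF were proliferating cells at day 0, with bFGF and EGF at 20 ng/mL each. The 3 bFGF/BMP4 libraries had 6 days in medium with bFGF and BMP4 at 20 ng/mL each, and the 3 BMP4 libraries had 6 days with BMP4 at 20 ng/mL and no bFGF. EGF was absent from both groups that received BMP4. The proliferation medium is described with B27 lacking vitamin A, and the BMP4-containing media with B27. BMP4, loss of EGF, time in culture, the type of B27 and plating therefore cannot be told apart in a comparison with bFGF/EGF. In BMP4 compared with bFGF/EGF, loss of bFGF cannot be told apart from these either. BMP4 and bFGF/BMP4 differed in the presence of bFGF. The series names the 3 libraries of a group biological replicates, but no source used here states whether they came from separate isolations, so p-values measure the spread between these libraries.

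Expression was measured as FPKM, the fragments of a gene scaled by its length and by the size of the library, and the libraries held 15892854 to 17419822 fragments on genes, rebuilt from the FPKM values. Short genes varied between libraries: the median deviation of 681 genes under 1300 bases from their group mean was 0.33 log2 units in BMP4 replicate 2 and 0.19 in bFGF/EGF replicate 2, the highest of the 9, and -0.20 in BMP4 replicate 1 and -0.17 in bFGF/EGF replicate 3, the lowest. Genes of 4000 bases or more lay at -0.06 in BMP4 replicate 2 and 0.02 in bFGF/EGF replicate 2. Mt1, Mt2 and Mt3 are short genes, and their fold changes are also given without BMP4 replicate 2 and without bFGF/EGF replicate 2. Of the 4 NSC markers, Sox2 held 121 to 202 FPKM over all 9 libraries. Nestin (Nes) stood at 145 to 157 FPKM in bFGF/EGF, 2.96 to 3.94 in bFGF/BMP4 and 10.7 to 20.7 in BMP4. In the same order of groups, Fabp7 had 587 to 695, 241 to 297 and 372 to 565 FPKM. Slc1a3 went the other way from nestin, with 66.4 to 82.7, 118 to 152 and 108 to 123 FPKM.

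All 4 mouse metallothionein genes lie together on the plus strand of chromosome 8 (GRCm39), with Mt4 at 94863825 to 94865661, Mt3 at 94879220 to 94881088, Mt2 at 94898819 to 94900207 and Mt1 at 94905710 to 94906955. Mtf1 lies on chromosome 4 (124695897 to 124743593), Slc30a1 on chromosome 1 (191638808 to 191645361), Slc39a1 on chromosome 3 (90155138 to 90160924) and Slc39a12 on chromosome 2 (14345378 to 14501069), all on the plus strand. The sequence before the start of the canonical GENCODE transcript is shown for the 4 genes that rose by at least 2-fold in both BMP4-containing groups. It is read 5′ to 3′ on the plus strand of GRCm39, 250 bases each at chr8:94905460-94905709 for Mt1, chr8:94878970-94879219 for Mt3 and chr2:14392662-14392911 for Slc39a12, and the 192 bases at chr8:94898940-94899131 for Mt2, whose first 58 bases of the window are exonic in another Mt2 transcript. Capitals mark the core of the metal response element, TGCACNC or TGCGCNC on either strand.
Mt1: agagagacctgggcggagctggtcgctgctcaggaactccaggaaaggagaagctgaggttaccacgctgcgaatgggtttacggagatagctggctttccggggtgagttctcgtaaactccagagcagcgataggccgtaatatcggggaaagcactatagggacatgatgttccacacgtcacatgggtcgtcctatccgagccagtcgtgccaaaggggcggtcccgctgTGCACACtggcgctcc
Mt2: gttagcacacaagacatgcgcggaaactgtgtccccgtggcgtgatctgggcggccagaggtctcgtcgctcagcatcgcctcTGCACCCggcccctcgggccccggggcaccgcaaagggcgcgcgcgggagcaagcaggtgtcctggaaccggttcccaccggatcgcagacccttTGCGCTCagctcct
Mt3: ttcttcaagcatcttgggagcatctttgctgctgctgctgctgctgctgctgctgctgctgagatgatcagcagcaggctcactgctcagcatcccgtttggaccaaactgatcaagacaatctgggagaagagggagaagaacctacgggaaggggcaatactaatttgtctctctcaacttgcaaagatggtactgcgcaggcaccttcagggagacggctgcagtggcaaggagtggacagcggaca
Slc39a12: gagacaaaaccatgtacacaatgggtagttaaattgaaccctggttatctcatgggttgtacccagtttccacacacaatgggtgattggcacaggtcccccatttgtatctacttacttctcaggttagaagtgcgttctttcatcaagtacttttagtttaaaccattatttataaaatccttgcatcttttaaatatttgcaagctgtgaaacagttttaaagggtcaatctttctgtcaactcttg

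The window before the annotated transcript start held 1 core in Mt1, 2 in Mt2 and 1 each in Slc30a1 and Mt4. It held none in Mt3, Mtf1, Slc39a1 or Slc39a12. Of 21770 protein-coding genes, 21.9% had at least 1 core in this window and 4.81% at least 2. The annotated starts lie 229 bases before the start codon in Mt1, 344 in Mt2 and 208 in Mt3. That stretch is annotated as 5′ untranslated sequence and holds the metallothionein cores listed next, except the first one of Mt1, which lies in both kinds of window. In the 250 bases before the start codon Mt1 held 5 cores, Mt2 4, Mt3 3 and Slc30a1 1, whereas Mtf1, Slc39a1 and Slc39a12 held none. Of 21770 windows of the same kind, 0.0551% held at least 5 cores, 0.312% at least 4, 1.31% at least 3 and 22.4% at least 1. Mt4 held 1 core there. The cores of the 4 genes with any among the 7 are shown with 8 bases of sequence on either side, or up to the window's edge, because Mt1, Mt2 and Slc30a1 are genes on which MTF1 is known to act.
Mt1, core at -245 from the start codon (chr8:94905689-94905708): cgctgTGCACACtggcgctc
Mt1, core at -220 from the start codon (chr8:94905711-94905733): gggagctcTGCACTCcgcccgaa
Mt1, core at -202 from the start codon (chr8:94905729-94905751): ccgaaaagTGCGCTCggctctgc
Mt1, core at -138 from the start codon (chr8:94905793-94905815): cgcctgctGGGTGCAaacccttt
Mt1, core at -124 from the start codon (chr8:94905807-94905829): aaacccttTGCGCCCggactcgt
Mt2, core at -226 from the start codon (chr8:94899242-94899264): ttcgggtcGTGCGCAggcccagg
Mt2, core at -172 from the start codon (chr8:94899296-94899318): aaaagggcGTGTGCAggcggcgg
Mt2, core at -153 from the start codon (chr8:94899315-94899337): gcgggggcGCGTGCAtggtgcct
Mt2, core at -119 from the start codon (chr8:94899349-94899371): ggagctttTGCGCTCgacccaat
Mt3, core at -166 from the start codon (chr8:94879254-94879276): gacagcagTGCACACacacggag
Mt3, core at -139 from the start codon (chr8:94879281-94879303): ggcgctgtGCGTGCAtaggggcg
Mt3, core at -107 from the start codon (chr8:94879313-94879335): tcgctgctTGCGCGCccccgcct
Slc30a1, core at -196 from the start codon (chr1:191638915-191638937): tccgggccGAGCGCAgtcgccgc
A match gives these letters only and is not a site shown to be bound, and a window without a match says nothing of MTF1 at that gene.

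**Figure D1:**
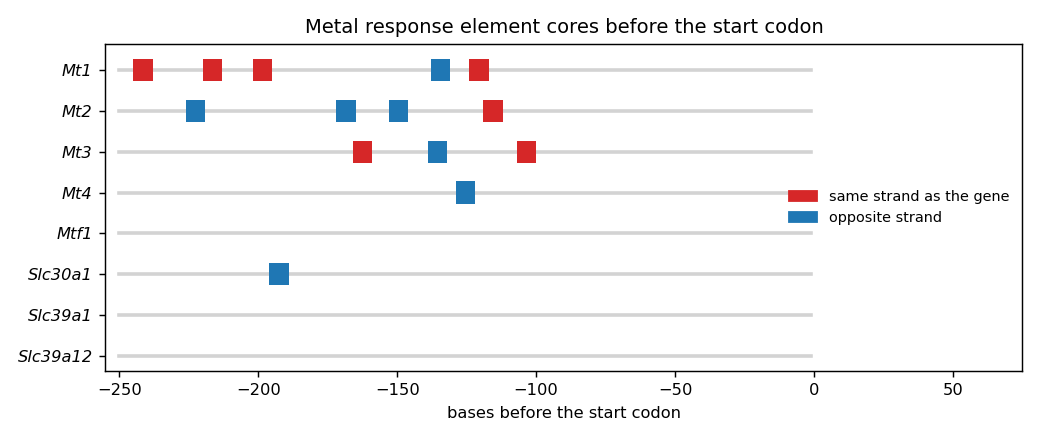
Positions of the metal response element core (7 bases, TGCACNC or TGCGCNC) in the 250 bases before the start codon of the 7 genes and Mt4, by distance from the start codon on the horizontal axis. Red blocks lie on the strand of the gene and blue blocks on the opposite strand; Mt1 held 5 cores, Mt2 4 and Mt3 3, and Mtf1, Slc39a1 and Slc39a12 held none.

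The first question was how these genes differed between proliferating NSCs and the NSCs kept with BMP4, with or without bFGF. Of the 7 genes, Mt1, Mt2, Mt3, Slc39a1 and Slc39a12 rose against bFGF/EGF, the same 5 in bFGF/BMP4 and in BMP4. In BMP4 compared with bFGF/BMP4, 4 rose: Mt1, Mt2, Slc39a1 and Slc39a12. A call was an adjusted p of at most 0.05 (limma on log2(FPKM + 0.1), Benjamini-Hochberg over 20207 genes), and the same rule called 25.0%, 29.6% and 12.2% of all genes higher in the 3 comparisons. With a fold change of at least 2 as well, 4, 4 and 3 of the 7 were higher, against 16.5%, 21.3% and 8.41% of all genes. None of the 7 was called lower by limma, at an unadjusted p under 0.05 or by limma-voom on rebuilt fragments, against 23.6%, 25.3% and 8.89% of all genes called lower by limma and 14.1%, 15.4% and 5.14% with 2-fold. The 3 comparisons share libraries, so their values are set side by side and not combined. Without BMP4 replicate 2 the counts higher were 6, 6 and 3, and without bFGF/EGF replicate 2 they were 5, 5 and 5.

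**Figure D2:**
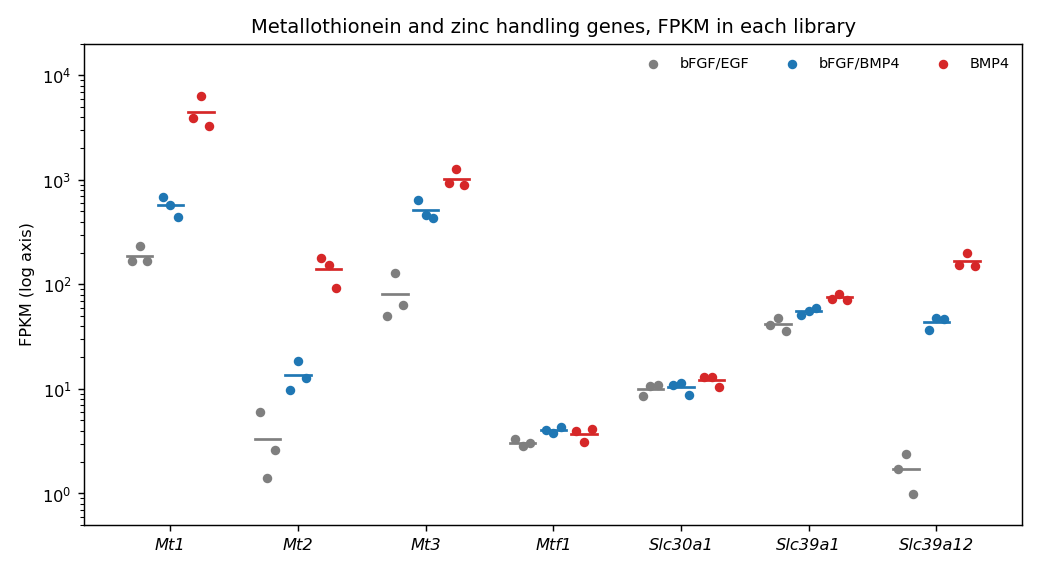
FPKM of the 7 genes in each of the 9 libraries on a log axis, with points for libraries and lines for the mean of the 3 libraries of a group. Mt1, Mt2, Mt3 and Slc39a12 climb from bFGF/EGF (grey) through bFGF/BMP4 (blue) to BMP4 (red) with no overlap between groups, while Mtf1 and Slc30a1 stay between 2.84 and 13.0 FPKM.

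Mt1, one of the broadly expressed metallothioneins, was the highest of the 7 in every group by mean. Its level was 166, 232 and 167 FPKM in the bFGF/EGF libraries, 694, 574 and 445 FPKM in bFGF/BMP4, and 3902, 6308 and 3259 FPKM in BMP4. The groups did not overlap, and BMP4 replicate 2 was the highest library. In these bulk samples a larger share of cells that express a gene and more of its RNA per cell cannot be told apart. Mt1 rose 3.02-fold in bFGF/BMP4 compared with bFGF/EGF (log2 fold change 1.59, SE 0.29, limma adjusted p = 0.0011) and 23.1-fold in BMP4 (4.53, SE 0.29, adjusted p = 9.9e-07). BMP4 exceeded bFGF/BMP4 by 7.68-fold (2.94, SE 0.29, adjusted p = 7.1e-05). Without BMP4 replicate 2 the last log2 fold changes were 4.26 and 2.67, and without bFGF/EGF replicate 2 those against bFGF/EGF were 1.75 and 4.69, with every call held. Among all genes of a library Mt1 stood at place 151 to 205 by FPKM in bFGF/EGF, at place 25 to 50 in bFGF/BMP4 and at place 3 to 5 in BMP4.

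Mt2, the close relative of Mt1 in sequence and regulation, was measured at far lower levels. It had 6.00, 1.40 and 2.60 FPKM in bFGF/EGF, from 60, 13 and 27 fragments, then 9.74, 18.7 and 12.6 FPKM in bFGF/BMP4 and 179, 153 and 92.9 FPKM in BMP4. No group overlapped another. Mt2 rose 4.57-fold in bFGF/BMP4 (log2 fold change 2.19, SE 0.46, limma adjusted p = 0.003) and 47.0-fold in BMP4 compared with bFGF/EGF (5.55, SE 0.46, adjusted p = 5.4e-06), and 10.3-fold in BMP4 compared with bFGF/BMP4 (3.36, SE 0.46, adjusted p = 0.00059). The level of Mt2 is uncertain. In GENCODE M39, 783 of its 950 exon bases (82.4%) are shared with the antisense long noncoding RNA Gm45774. The deposited FPKM imply a counted length of 588 bases for Mt2, so the overlap in the counted exons is not known. The strand setting of the counting is also not given in the sources used here. Gm45774 itself had 0.0221 to 0.212 FPKM in bFGF/EGF, 0.490 to 0.612 in bFGF/BMP4 and 0.614 to 1.83 in BMP4, and its part in the Mt2 values was not tested. Whether fragments in the shared bases went uncounted for Mt2 was not tested either. Without bFGF/EGF replicate 2 the Mt2 log2 fold changes were 1.71, 5.07 and 3.36, and without BMP4 replicate 2 they were 2.19, 5.47 and 3.28, all called.

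Mt3, the metallothionein best known from brain, rose in both BMP4-containing groups. It had 50.3, 128 and 63.0 FPKM in bFGF/EGF, 645, 464 and 429 FPKM in bFGF/BMP4, and 930.4, 1279 and 885 FPKM in BMP4. The highest bFGF/EGF library was replicate 2, and the groups did not overlap. Mt3 rose 6.80-fold in bFGF/BMP4 (log2 fold change 2.77, SE 0.33, limma adjusted p = 8.1e-05) and 13.7-fold in BMP4 (3.78, SE 0.33, adjusted p = 7.2e-06) compared with bFGF/EGF. Between BMP4 and bFGF/BMP4 its log2 fold change was 1.01 (95% interval 0.28 to 1.74) with an adjusted p of 0.054, which missed the threshold although every BMP4 library was above every bFGF/BMP4 library. That call turned on the setting: it passed under 6 of 19 alternatives, with adjusted p from 0.0069 to 0.17 over all of them, and without bFGF/EGF replicate 2, a library of neither group compared, adjusted p was 0.011, whereas without BMP4 replicate 2 it was 0.16. Without bFGF/EGF replicate 2 the log2 fold changes against bFGF/EGF were 3.16 and 4.17, and without BMP4 replicate 2 that of BMP4 against bFGF/EGF was 3.61.

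**Figure D3:**
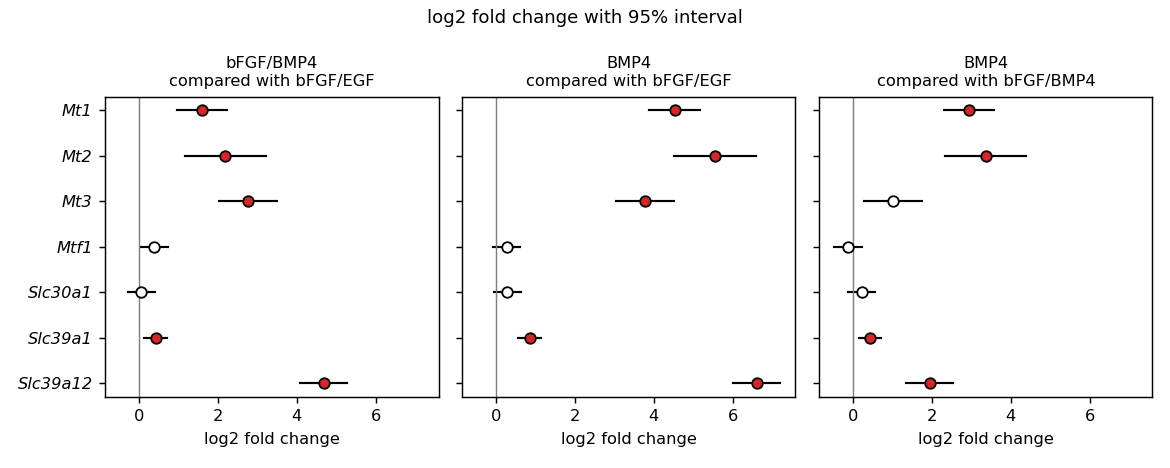
log2 fold change of the 7 genes in the 3 comparisons, with the 95% interval from limma as a bar; filled points were called at an adjusted p of at most 0.05 and open points were not. Mt3 is filled in both comparisons with bFGF/EGF and open in BMP4 compared with bFGF/BMP4, where its interval runs from 0.28 to 1.74.

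The metallothioneins together took 0.0329% ± 0.00852 (SD, n = 3) of the fragments on genes in bFGF/EGF. The share was 0.120% ± 0.0289 in bFGF/BMP4 libraries and 0.645% ± 0.196 in those with BMP4 alone. The highest library, BMP4 replicate 2, had 0.866%. Groups did not overlap, and each comparison gave p = 0.1 in a two-sided exact permutation test, the smallest that 3 libraries against 3 allow. Without bFGF/EGF replicate 2 the mean share there was 0.0281%, and without BMP4 replicate 2 it was 0.534% in BMP4. The balance within the family is given by the ratio of Mt1 to Mt3, chosen after the values were seen. Mt1 exceeded Mt3 by 3.30, 1.81 and 2.66 times in FPKM in bFGF/EGF, by 1.08, 1.24 and 1.04 times in bFGF/BMP4 and by 4.19, 4.93 and 3.68 times in BMP4. The ratio was thus lowest in bFGF/BMP4, where the FPKM ranges of Mt1 and Mt3 overlapped, and highest in BMP4, with no overlap between groups. The same exact permutation test gave p = 0.1 in each comparison. Ranges of 3 against 3 libraries that do not overlap always give this value, so it adds nothing to the ranges. Without the same libraries the mean ratio was 2.98 in bFGF/EGF and 3.94 in BMP4. Mt2 as counted made up at most 1.77% of metallothionein fragments in any library. That share carries the uncertainty of the Mt2 level, because most Mt2 exon bases in GENCODE M39 are shared with Gm45774.

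**Figure D4:**
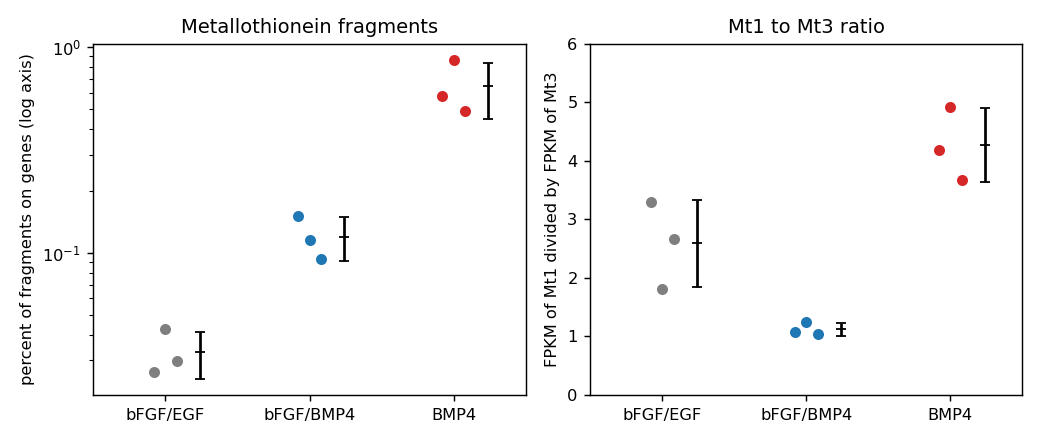
Left, percent of fragments on genes that fell on Mt1, Mt2 and Mt3 together, on a log axis; right, FPKM of Mt1 divided by FPKM of Mt3. Points are libraries and black bars the mean ± SD of 3; the share climbs from 0.0329% through 0.120% to 0.645% on average, and the ratio is lowest in bFGF/BMP4 (1.04 to 1.24).

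Mt4, the metallothionein known from stratified epithelia, had 0 fragments in the 6 bFGF/EGF and bFGF/BMP4 libraries, a count that allows up to 3 fragments a library, and 4, 5 and 2 fragments in BMP4. It passed the filter on low values through the BMP4 group alone, and no fold is given. Having passed only through the group where it is high, Mt4 is counted in no list here.

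Mtf1, the zinc sensor, was low and nearly level. Its FPKM were 3.32, 2.84 and 3.05 in bFGF/EGF, 4.09, 3.75 and 4.32 in bFGF/BMP4, and 3.97, 3.08 and 4.15 in BMP4. All bFGF/BMP4 libraries were above all bFGF/EGF libraries, and BMP4 overlapped both. The log2 fold changes were 0.39 (95% interval 0.04 to 0.74, limma adjusted p = 0.06) in bFGF/BMP4 and 0.27 (-0.08 to 0.61, adjusted p = 0.17) in BMP4 compared with bFGF/EGF, and -0.13 (-0.47 to 0.22, adjusted p = 0.64) between the BMP4-containing groups. Without BMP4 replicate 2 the first 2 passed, at adjusted p = 0.03 and 0.042. Mtf1 shares 8.36% of its exon bases in GENCODE M39 with the antisense gene 1110065P20Rik, which had 13.8 to 24.4 FPKM.

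Slc30a1, which carries zinc out through the plasma membrane, was not called in any comparison. It had 8.48, 10.6 and 10.8 FPKM in bFGF/EGF, 11.0, 11.3 and 8.82 FPKM in bFGF/BMP4 and 12.9, 13.0 and 10.4 FPKM in BMP4, so that all 3 groups overlapped. The log2 fold changes were 0.06 (95% interval -0.28 to 0.40) and 0.28 (-0.06 to 0.62) compared with bFGF/EGF and 0.22 (-0.12 to 0.56) between the BMP4-containing groups, with limma adjusted p of 0.79, 0.15 and 0.36. The intervals exclude a 2-fold change in either direction. Slc30a1 shares 8.26% of its exon bases in GENCODE M39 with the antisense gene 1700034H15Rik, which had 0.0518 to 0.293 FPKM.

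Slc39a1, a widely expressed plasma membrane importer, rose by less than 2-fold. It had 41.2, 48.0 and 36.0 FPKM in bFGF/EGF, 51.1, 56.2 and 60.0 FPKM in bFGF/BMP4, and 72.3, 81.6 and 71.4 FPKM in BMP4, without overlap. It rose 1.80-fold in BMP4 compared with bFGF/EGF (log2 fold change 0.85, SE 0.13, limma adjusted p = 0.00034). The smaller steps were 0.42 in bFGF/BMP4 compared with bFGF/EGF (SE 0.13, adjusted p = 0.022) and 0.43 in BMP4 compared with bFGF/BMP4 (SE 0.13, adjusted p = 0.042). Those calls were lost under 6 and 11 of 19 alternatives, with adjusted p up to 0.081 and 0.13; leaving out any library of the BMP4 or bFGF/BMP4 group ended the call between these groups. In GENCODE M39, Slc39a1 shares 25.2% of its 4306 exon bases with the antisense gene Gm66066, which is not among the genes of the deposited table. The deposited FPKM imply a counted length of 2364 bases for Slc39a1, so the overlap in the counted exons is not known.

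Slc39a12, an importer known from brain and from astrocytes in particular, had the widest span of the 7. It had 1.73, 2.38 and 0.982 FPKM in bFGF/EGF, from 88, 113 and 52 fragments, then 36.5, 47.8 and 46.6 FPKM in bFGF/BMP4 and 152, 201 and 151 FPKM in BMP4. The groups stood far apart relative to their spread. Slc39a12 rose 25.6-fold in bFGF/BMP4 (log2 fold change 4.68, SE 0.27, limma adjusted p = 7.5e-07) and 98.1-fold in BMP4 compared with bFGF/EGF (6.62, SE 0.27, adjusted p = 6.9e-08), and 3.84-fold in BMP4 compared with bFGF/BMP4 (1.94, SE 0.27, adjusted p = 0.0006). With a pseudocount of 1 the first 2 log2 fold changes were 4.07 and 5.99. In bFGF/EGF it stood at place 9852 to 12368 of a library by FPKM, and in BMP4 at place 175 to 191.

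By mean FPKM, Slc39a12 was the lowest of the 7 in bFGF/EGF (1.70 ± 0.701, SD, n = 3), below Mtf1 (3.07 ± 0.242), and in BMP4 it stood behind Mt1 and Mt3 (168 ± 28.6), with a range that overlapped that of Mt2. In bFGF/BMP4 the ranges of Mt1 and Mt3 overlapped, although Mt1 was slightly above Mt3 within each library (ratios of 1.08, 1.24 and 1.04). Slc39a1 lay above Slc39a12 in bFGF/BMP4 (55.8 ± 4.49 against 43.7 ± 6.22) and below it in BMP4 (75.1 ± 5.64), with ranges apart both times. Slc30a1 stood above Mtf1 in all 3 groups.

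Over all genes tested, 25.0%, 29.6% and 12.2% were called higher and 23.6%, 25.3% and 8.89% lower in the 3 comparisons, the background for the gene lists that follow. Of 10 SLC30 genes, 6 passed the filter on low values, and 2, 1 and 0 of them were higher and 0, 1 and 1 lower, in the order bFGF/BMP4 against bFGF/EGF, BMP4 against bFGF/EGF, BMP4 against bFGF/BMP4. With 6 genes these counts do not stand above the shares over all genes by more than 1 gene. At an unadjusted p under 0.05 and by limma-voom the counts of 0 were also 0, and limma-voom called 1 gene higher in the first comparison. Their median log2 fold changes were 0.07, 0.09 and 0.05, beside 0.06, 0.10 and 0.00 over all genes tested. Slc30a9, known from mitochondria, rose from 8.07 ± 0.621 FPKM in bFGF/EGF to 13.9 ± 0.842 in bFGF/BMP4 (log2 fold change 0.78, limma adjusted p = 0.00044) and 14.7 ± 1.69 in BMP4 (0.85, adjusted p = 0.00019; SD, n = 3). Slc30a5, a Golgi transporter, rose in bFGF/BMP4 by 0.42 (adjusted p = 0.016) and was 0.49 lower on the log2 scale in BMP4 than there (-0.49, adjusted p = 0.017). Slc30a4 fell by 0.54 on the log2 scale in BMP4 compared with bFGF/EGF (adjusted p = 0.017).

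Of 14 SLC39 genes, 13 were tested, and 5, 5 and 4 were higher and 3, 3 and 0 lower in the same comparisons, Slc39a1 and Slc39a12 included. The lower counts are near the shares of all genes called lower (23.6%, 25.3% and 8.89%). In the last comparison 2 were lower at an unadjusted p under 0.05 and 1 by limma-voom. The median log2 fold changes were 0.15, 0.63 and 0.00. Slc39a13, a ZIP protein of the secretory pathway, rose in all 3 comparisons, from 4.07 ± 0.754 FPKM in bFGF/EGF to 8.46 ± 0.273 in bFGF/BMP4 and 14.0 ± 1.18 FPKM in BMP4 (mean ± SD, n = 3). Its log2 fold changes were 1.05, 1.77 and 0.72, with limma adjusted p of 0.00021, 4.8e-06 and 0.0055. Slc39a10, a plasma membrane importer, fell by 1.03 in bFGF/BMP4 and by 1.34 in BMP4 on the log2 scale (adjusted p = 0.0018 and 0.00027), from 19.9 ± 3.61 FPKM. Slc39a14, which also carries iron and manganese, rose in BMP4 compared with bFGF/EGF (0.67, adjusted p = 0.006) and with bFGF/BMP4 (0.66, adjusted p = 0.018), and had 0.02 (adjusted p = 0.95) in bFGF/BMP4 compared with bFGF/EGF. Slc39a2 rose in bFGF/BMP4 compared with bFGF/EGF (1.17, adjusted p = 0.03) at levels under 1 FPKM in every library. The other lower genes were Slc39a6 and Slc39a7 and the other higher one Slc39a11, in both comparisons with bFGF/EGF. Slc39a12 was thus 4.68 and 6.62 log2 units higher in a family whose next log2 fold changes were 1.17 and 1.77.

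**Figure D5:**
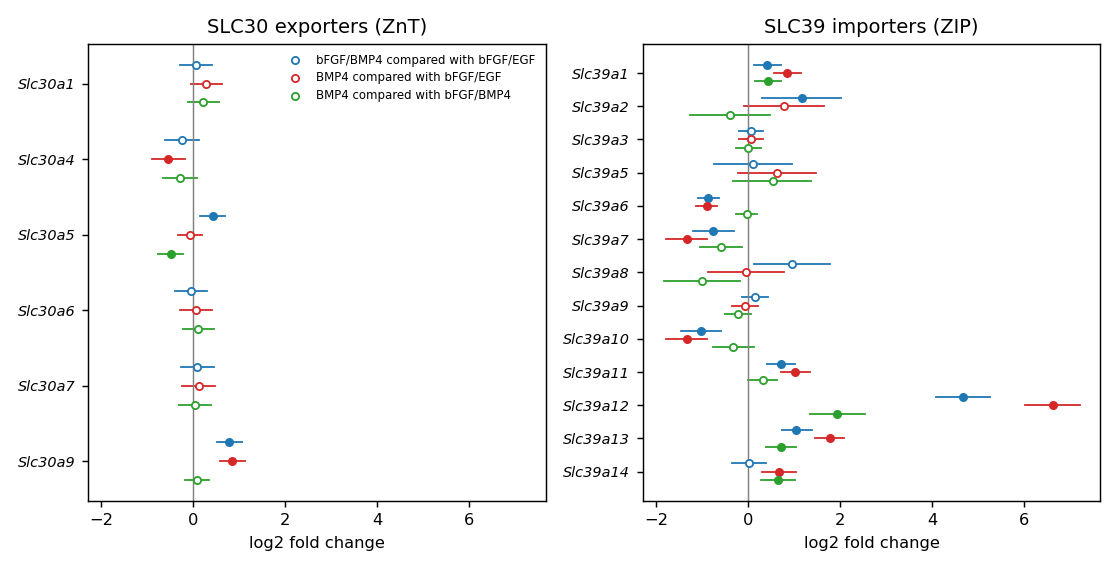
log2 fold changes with 95% intervals of the 6 SLC30 and 13 SLC39 genes tested, in blue for bFGF/BMP4 compared with bFGF/EGF, red for BMP4 compared with bFGF/EGF and green for BMP4 compared with bFGF/BMP4; filled points were called. Slc39a12 lies far to the right, Slc39a6, Slc39a7 and Slc39a10 lie to the left against bFGF/EGF, and the SLC30 genes stay between -0.54 and 0.85.

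Among 6 genes made of Mtf1 and those known to respond to it, 3, 3 and 3 were higher (Mt1, Mt2 and Gclc) and 1, 1 and 0 lower (Slc39a10), with 0 also at an unadjusted p under 0.05 and by limma-voom. The median log2 fold changes were 0.86, 1.17 and 0.48, and Mt1 and Mt2 are themselves among the 7 genes. Of all genes 25.0%, 29.6% and 12.2% were called higher. Gclc, the catalytic subunit of the enzyme that begins glutathione synthesis, rose from 21.4 ± 1.93 FPKM in bFGF/EGF to 54.0 ± 9.68 in bFGF/BMP4 (log2 fold change 1.32, limma adjusted p = 5.1e-05) and 89.5 ± 8.18 in BMP4 (2.06, adjusted p = 2.1e-06; SD, n = 3), and by 0.74 between the last groups (adjusted p = 0.0049). Slc39a10, which MTF1 is known to repress, was the lower one. Mtf1 and Slc30a1 were the members of the list with no call.

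Copper genes had 13 of 14 tested, with 4, 4 and 3 higher and 0 lower and medians of 0.35, 0.45 and 0.18. Of all genes 25.0%, 29.6% and 12.2% were called higher and 23.6%, 25.3% and 8.89% lower. The higher counts are near these shares in the comparisons with bFGF/EGF. Steap4, which was not called, passed the filter on low values only through BMP4 (0.312 FPKM on average). By limma-voom 1 was higher and 2 were lower in the first comparison, and 2 were lower at an unadjusted p under 0.05 in the last. Atox1, a cytosolic copper chaperone, rose in all 3 comparisons, with 65.3 ± 15.4, 111 ± 8.56 and 236 ± 74.3 FPKM in the 3 groups (log2 fold changes 0.79, 1.83 and 1.05, limma adjusted p = 0.015, 7.1e-05 and 0.0076). BMP4 replicate 2 was again its highest library, at 322 FPKM. Atp7b, a copper-exporting ATPase, rose in BMP4, by 2.29 compared with bFGF/EGF (adjusted p = 6e-05) and 1.70 compared with bFGF/BMP4 (adjusted p = 0.0015). Cox11, a copper carrier of cytochrome oxidase assembly, rose in bFGF/BMP4 compared with bFGF/EGF (0.68, adjusted p = 0.022).

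Of 19 iron genes, 16 were tested, and 7, 7 and 2 were higher and 5, 4 and 1 lower, with medians of 0.16, 0.02 and -0.04. Of all genes 25.0%, 29.6% and 12.2% were called higher and 23.6%, 25.3% and 8.89% lower. The lower counts are near these shares in all 3 comparisons, and the higher count is near them in BMP4 compared with bFGF/BMP4. Heph and Hfe, a ferroxidase and a regulator of iron uptake, rose by 4.08 and 2.48 in bFGF/BMP4 and by 3.79 and 2.49 in BMP4 on the log2 scale, with limma adjusted p of 2.5e-05 or less. Heph was at 0.0295 to 0.0537 FPKM in bFGF/EGF, where its fold rests on the pseudocount. Trf, which encodes transferrin, fell by 3.34 in BMP4 compared with bFGF/EGF (adjusted p = 1.3e-05) and by 1.53 compared with bFGF/BMP4 (adjusted p = 0.0067). Cp, the copper-carrying ferroxidase ceruloplasmin, had 1.98, 0.419 and 1.96 FPKM on average in the 3 groups. It fell by 2.02 in bFGF/BMP4 compared with bFGF/EGF (limma adjusted p = 4.1e-05) and rose by 2.01 in BMP4 compared with bFGF/BMP4 (adjusted p = 0.00013).

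Genes whose profile over the 9 libraries was most like that of each of the 4 strongly varying genes were sought among 7899 genes with a mean of at least 5 FPKM, by the mean absolute difference of log2(FPKM + 0.1) after centring. For Mt1 these were Ttyh1 and Slc41a3 (0.25 each), Adap1 and Tst (0.27 each) and Gm5424 (0.32), where the median gene differed by 1.71. Those nearest to Mt2 were Adap1 (0.45), Plscr2 (0.49), Serpina3n and Plce1 (0.53 each) and Ttyh1 (0.55), with a median of 2.06. Mt3 was nearest to Stard10 (0.20), Id1 (0.21), Acsf2 (0.24), Oplah (0.25) and Agtrap (0.27), with a median of 1.49. Id1, an inhibitor of DNA binding induced by BMP signals, had 21.0, 143 and 228 FPKM on average in the 3 groups. For Slc39a12 they included Omd (0.24), Col11a2 (0.30) and Pla2g7 and Man1c1 (0.38 each), with a median of 2.54. With a pseudocount of 1, Ttyh1 and Adap1 were again among the 5 for Mt1, Serpina3n for Mt2, Stard10 and Id1 for Mt3, and Pla2g7 and Man1c1 for Slc39a12.

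Most astrocyte markers were higher where the metallothioneins and Slc39a12 were. The summed FPKM of 6 markers (Gfap, Aqp4, Aldoc, S100b, Aldh1l1 and Gja1) ran from 165 to 233 in bFGF/EGF, from 514 to 573 in bFGF/BMP4 and from 3614 to 4506 in BMP4. In each comparison 5 of 6 were called higher, against 25.0%, 29.6% and 12.2% of all genes. Gfap, the astrocyte filament gene, had at most 0.134 FPKM in bFGF/EGF, 16.8 to 21.5 in bFGF/BMP4 and 2181 to 3038 in BMP4, where it made up most of the sum, whereas Aldh1l1 was lower in both BMP4-containing groups than in bFGF/EGF. S100b was the marker with no call between the BMP4-containing groups, at 49.9 to 60.7 FPKM in bFGF/BMP4 libraries and a lower 34.2 to 49.8 FPKM with BMP4 alone (limma adjusted p = 0.22). Proliferation markers (Mki67, Top2a, Ccnb1 and Cdk1) went the other way, with sums of 115 to 244, 30.2 to 51.3 and 6.81 to 7.83 FPKM. In each comparison 4 of 4 were called lower, against 23.6%, 25.3% and 8.89% of all genes. Sums of 6 markers for neurons and neuroblasts were 75.7 to 91.8, 47.6 to 53.3 and 142 to 213 FPKM, those of 6 for ependymal cells 8.38 to 13.1, 10.5 to 11.5 and 59.5 to 72.0, with Tmem212 at 0 in every group, and those of 6 for oligodendrocytes and their precursors 12.2 to 17.2, 9.39 to 11.0 and 24.6 to 30.7, with Sox10 at 0 in both BMP4-containing groups. Microglial sums did not pass 1.74 FPKM, with C1qa at 0, and endothelial and mural sums did not pass 5.41, with Cldn5 at 0. Of 4 NSC markers (Sox2, Nes, Fabp7 and Slc1a3), 1, 1 and 2 were called higher and 2, 1 and 0 lower in the 3 comparisons. Of 5 ependymal markers tested, 0, 5 and 5 were called higher and 2, 0 and 0 lower. Neuronal markers, 6 tested, had 0, 2 and 3 higher and 2, 2 and 1 lower. Oligodendrocyte markers, 5 tested, had 1, 1 and 1 higher and 3, 3 and 0 lower. Endothelial and mural markers, 3 tested, had 2, 3 and 2 higher and 0 lower. Microglial markers, 2 tested, had 1, 1 and 1 higher and 1, 1 and 0 lower. Ccdc153 and Pdgfrb passed the filter on low values only through BMP4 (0.653 and 0.385 FPKM on average). Sox10 passed it only through bFGF/EGF (0.603 FPKM). The counts for ependymal, endothelial and mural, and oligodendrocyte markers include these 3 genes, whose calls add nothing because each passed only through the group where it is high. The part of these cell states in the zinc genes was not tested.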

How the data were processed

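RNA-seq libraries of 9 cultures in 3 groups were analysed. Per the labels, the authors used fastp 0.19.7, HISAT2 2.0.5 on mm39 and featureCounts 1.5.0-p3, and deposited FPKM values for 55704 genes; annotation release and strand setting are not given in the sources used here. Whole fragments were rebuilt as the smallest whole numbers that explain the deposited FPKM, for 30860 of 30860 genes above 0. Symbols, coordinates and exon overlaps came from GENCODE M39 (GRCm39, the same build), in which 54749 identifiers were found. Gene lengths implied by the deposited FPKM equalled its exon lengths in 5.62% of 9105 genes with at least 100 fragments in each library. The exons counted by the authors thus differed from GENCODE M39 for most genes.

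Genes with a mean of at least 0.1 FPKM (20207) were tested in limma 3.58.1 (R 4.3.3) with a trend on log2(FPKM + 0.1), all 9 libraries in 1 fit, two-sided, Benjamini-Hochberg adjusted, and called at 0.05. Fold changes are on that scale, which understates the change of low genes. The fit was tested on simulated data. Python 3.11.15, pandas 2.3.3, numpy 2.4.6, scipy 1.17.1 and matplotlib 3.10.9 were used for the rest. Intervals of fold changes are 95% intervals of the fit.

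Named beyond the 7 genes were, from each of 6 lists, the 2 genes outside the 7 with the largest called change in each comparison, for Mt1, Mt2, Mt3 and Slc39a12 the 5 genes of most similar profile, and the markers. Of these, 1 gene is not reported here. Slc39a6, Slc39a7 and Slc39a11 were named after their values were seen. The members and lists were chosen with earlier results of these data known. Promoter windows were read from GRCm39, since the RefSeq promoter table, which held 7 of 7 genes, is of another build. As alternatives, the pseudocount was set to 1, the filter dropped or raised to 1 FPKM, and the fit repeated with TPM, median-ratio and quantile scaling, limma-voom on rebuilt fragments, a replicate block, fits of only the groups compared, each library left out, and, added after the data were seen, centring within 20 length bins.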

Additional observations from a re-analysis of the deposited data

How the results depend on the processing

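Over 21 comparisons of the 7 genes and 19 alternatives, 369 of 399 values kept their direction and their side of the threshold, 17 lost the call, 9 gained it and 4 changed sign, none of them called. In bFGF/BMP4 compared with bFGF/EGF, Slc30a1 (0.06) was -0.06 by limma-voom and -0.05 to 0.17 with a library left out, and Slc39a14 (0.02) was -0.10 by limma-voom, -0.01 with median-ratio scaling, -0.03 with quantile normalization, -0.07 with length bins and -0.08 to 0.13 with a library left out. In BMP4 compared with bFGF/EGF, Cox11 (0.16) was -0.34 with length bins, and with a library left out Cox11 ran from -0.02 to 0.25, Cp (-0.01) from -0.09 to 0.07 and Slc30a5 (-0.07) from -0.15 to 0.03. Between the BMP4-containing groups, Hfe (0.01) was -0.06 with TPM, 0.00 with median-ratio scaling, -0.01 with quantile normalization, -0.07 with length bins and -0.16 to 0.16 with a library left out, Slc30a9 (0.07) was 0.00 with TPM and -0.02 to 0.14 with a library left out, and Mtf1 (-0.13) was -0.21 to 0.00. The counts of the 7 called higher ran from 4 to 6 in bFGF/BMP4 compared with bFGF/EGF, from 5 to 6 in BMP4 compared with bFGF/EGF and from 3 to 5 in BMP4 compared with bFGF/BMP4. The calls that turned were those of Mt3 between the BMP4-containing groups, of Mtf1, and of Slc39a1 in the smaller steps; the cause was not tested. Centring within length bins gave Mt1 log2 fold changes of 1.32, 4.08 and 2.75 and Slc39a1 0.26, 0.51 and 0.26, of which the first and last missed the threshold (adjusted p = 0.061 and 0.11). Quantile normalization moved the median of all genes in BMP4 compared with bFGF/EGF from 0.10 to -0.03, and length bins moved it to -0.01.

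The labels number the replicates 1 to 3 in each group. Deviations of same-numbered libraries had correlations of -0.084 to 0.125, beside -0.154 to 0.081 for libraries of different number. The highest was that of bFGF/EGF replicate 2 with BMP4 replicate 2. With correlations this low, the numbers were not taken as pairs. With a replicate block the counts of the 7 genes called higher were 5, 5 and 4, Mt3 passed in BMP4 compared with bFGF/BMP4 (1.01, limma adjusted p = 0.047) and Slc39a1 there missed it (0.43, adjusted p = 0.05). All genes called with the block were 4913 higher and 4657 lower, 5894 and 5030, and 2267 and 1631 in the 3 comparisons, against 5058 and 4761, 5991 and 5105, and 2474 and 1797 without it. The calls that turned had log2 fold changes of 0.27 to 1.01. Counting error limits Mt2 in bFGF/EGF (13 to 60 fragments) and Mt4.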
